A study of Mus musculus with 6 samples.

Results

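The genes described here encode the machinery that carries a newly made secretory protein into the endoplasmic reticulum (ER), cuts off its signal peptide and attaches N-linked sugar chains. The 32 genes named for this machinery were looked for in RNA sequencing of mouse pancreatic islets, and 29 of them were analysed, among 39470 loci in the count table. Each gene was linked to a locus by matching exon and intron lengths in order, on the same chromosome and strand. Sec61g, Spcs2 and Srp19 were linked as well but left out, since over 90% of their exonic bases were shared with another locus. They held 0, 0 and 2 reads in all 6 libraries together.

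The islets came from C57BL/6 mice, an inbred laboratory strain, on a high fat diet (3 libraries) or a normal diet (3 libraries), all aged 14 weeks at sacrifice after 8 weeks of feeding. Islets are small groups of endocrine cells in the pancreas. The study asked which transcripts differ in islets of mice made obese by diet. No genetic change or drug is named for either group, and the labels do not say whether a library came from 1 animal or from pooled animals, so the spread that the p-values rest on is that of libraries and may be technical. The count columns carry abbreviations, of which HDR was read as the high fat diet, and every direction given here depends on that reading.

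As background, the signal recognition particle (SRP) binds the signal sequence of a nascent protein and takes the ribosome to the SRP receptor on the ER membrane. The protein then enters through the Sec61 channel, helped by the TRAP complex and other partners, while signal peptidase removes the signal sequence and oligosaccharyltransferase (OST) transfers a preassembled sugar chain to asparagine. Beta cells make large amounts of preproinsulin, which enters the ER this way. Insulin itself carries no N-linked sugar, but many receptors, granule proteins and processing enzymes of the islet do.

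Library totals ran from 104657337 to 135353777 counted reads. CPM are counts scaled to a common library total with TMM factors, which lay below 1 in the high fat libraries (0.909 to 0.958) and above 1 in the normal diet libraries (1.05 to 1.10). Defining islet genes (Ins1, Ins2, Iapp and Gcg) were abundant in all libraries, and the 6 measured beta-cell markers summed to 84423 to 103794 CPM in high fat islets and 58578 to 68868 CPM in normal diet islets. Iapp weighed most in that sum, with 33258360 counts over all 6 libraries, beside 5926268 for Ins1 and 9788116 for Ins2. On the second principal component of all loci, high fat library 3 was at -59.4 and high fat libraries 1 and 2 at 32.3 and 25.5. Library 3 also had lower values than they did in GC-rich genes, as described below, so results are given with and without it where it matters.

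The first question was how many genes of this machinery differed between the diets. At an adjusted p under 0.05 (edgeR, quasi-likelihood, Benjamini-Hochberg over 23983 loci), 18 of the 29 genes rose in high fat islets and 0 fell. The same test called 5.95% of all loci higher and 4.86% lower. Abundant loci rose more often than others. Of the 4232 loci with a mean of at least 50 CPM, which take in all of the genes here but Srp54a, 20.4% were called higher and 1.3% lower. The share of these genes called higher was 62.1%. The high fat libraries all lay above the normal diet libraries for 22 of the 29 genes, as they did for 18.8% of all loci and 48.3% of the abundant ones. They all lay below for 0 of the 29, and for 20.4% of all loci and 4.77% of the abundant ones.

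The changes were small, and all values but that of Srp54a were positive. The median log2 fold change of the 29 genes was 0.37, beside -0.050 over all loci and 0.19 over the abundant loci. The 18 genes that passed ranged from 0.29 for Magt1 to 0.75 for Sec11c. Of the 11 that did not pass, 10 had positive values, from 0.16 for Srp68 to 0.48 for Srprb, and Srp54a stood at -0.18. Summed over the 28 genes other than Srp54a, the level was 14572, 15749 and 13851 CPM in high fat islets, against 10595, 11456 and 11372 CPM in normal diet islets.

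**Figure D1:**
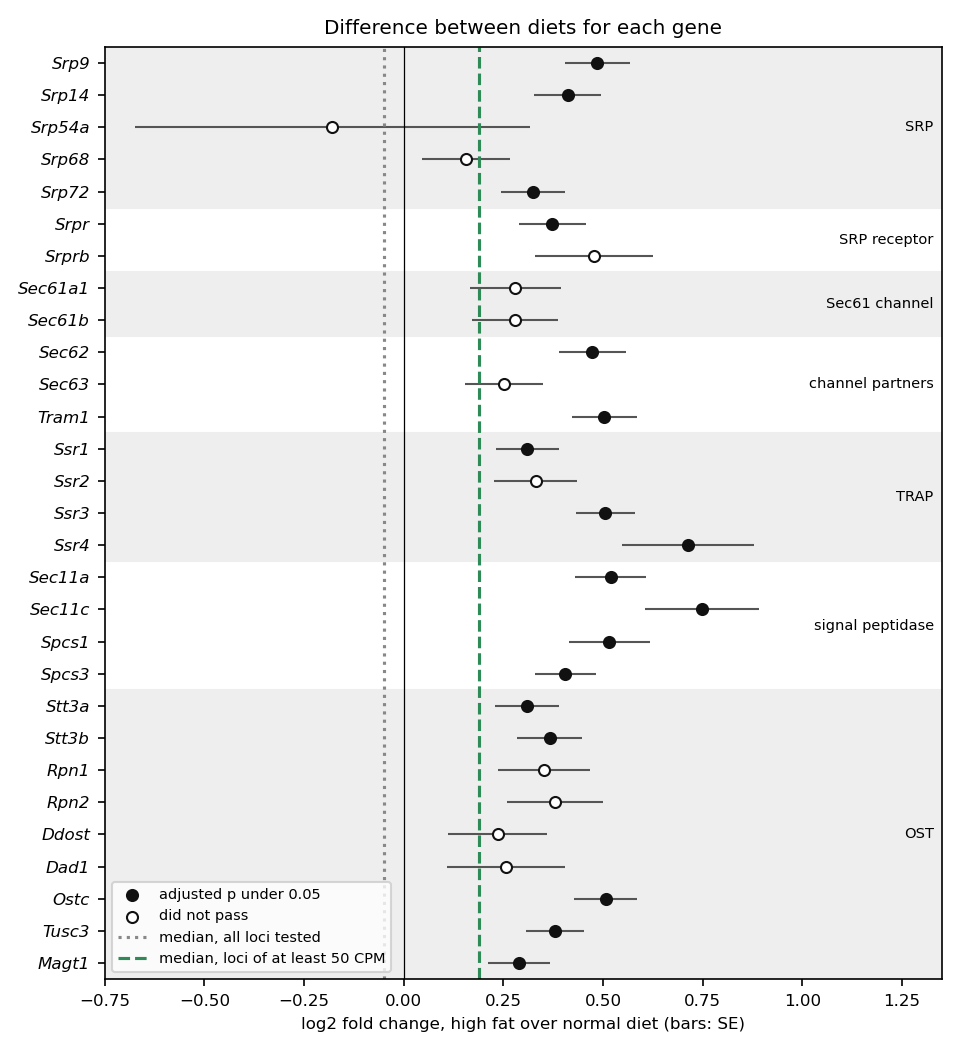
Log2 fold change of each gene (x axis, high fat over normal diet, bars are the SE) by complex (y axis), with filled points for an adjusted p under 0.05. The 18 filled points lie between 0.29 and 0.75, all to the right of the medians of all loci (-0.050) and of loci of at least 50 CPM (0.19).

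These calls rest on all 3 normal diet libraries and on high fat libraries 1 and 2. Leaving out any 1 of those 5 libraries took the count of genes that passed to 0. Those fits called at most 94 loci higher and 34 lower of any kind. In them 20 to 23 of the 29 genes had positive values at unadjusted p below 0.05 by edgeR. Of all loci, 5500 to 7029 had an unadjusted p below 0.05 in either direction, and the share among abundant loci was not computed. When high fat library 3 was left out, in contrast, 26 passed, beside 12.4% of all loci and 37.5% of the abundant ones. Srp54a, Srp68 and Sec63 were the genes that did not pass then. Through all 6 of these fits the median log2 fold change of the 29 genes stayed between 0.30 and 0.40. In bulk islets, more cells of a type and more RNA per cell cannot be told apart, and this holds for every value given here.

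Outside TRAP, promoters are shown for the 5 genes that had the smallest adjusted p in their complex among those that rose and have a promoter in the RefSeq table used here (GRCm38.p6; 250 bases before to 50 after the annotated start), since 18 of the 29 genes rose. Capitals mark matches on either strand to motif CCAAT, to motif CCACG and to motif ACGTG, which occur in the ER stress response element and in related elements bound by ATF6 and XBP1, transcription factors of the unfolded protein response. The regions are chr1:182124487-182124786 on the plus strand for Srp9, chr7:80947501-80947800 on the minus strand for Sec11a, chr3:30792626-30792925 on the plus strand for Sec62, chr9:115310419-115310718 on the minus strand for Stt3b, and chr9:35210953-35211252 on the plus strand for Srpr.
Srp9: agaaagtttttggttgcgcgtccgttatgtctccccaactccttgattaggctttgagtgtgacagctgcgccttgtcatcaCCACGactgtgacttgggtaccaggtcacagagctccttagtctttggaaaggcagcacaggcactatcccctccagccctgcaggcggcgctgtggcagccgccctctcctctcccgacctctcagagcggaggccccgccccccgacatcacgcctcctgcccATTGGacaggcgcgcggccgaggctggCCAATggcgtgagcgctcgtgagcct
Sec11a: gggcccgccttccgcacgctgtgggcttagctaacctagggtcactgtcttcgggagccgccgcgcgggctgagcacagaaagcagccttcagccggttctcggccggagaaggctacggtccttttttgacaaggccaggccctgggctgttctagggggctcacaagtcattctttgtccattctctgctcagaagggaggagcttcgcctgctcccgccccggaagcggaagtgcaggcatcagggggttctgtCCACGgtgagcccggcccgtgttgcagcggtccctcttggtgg
Sec62: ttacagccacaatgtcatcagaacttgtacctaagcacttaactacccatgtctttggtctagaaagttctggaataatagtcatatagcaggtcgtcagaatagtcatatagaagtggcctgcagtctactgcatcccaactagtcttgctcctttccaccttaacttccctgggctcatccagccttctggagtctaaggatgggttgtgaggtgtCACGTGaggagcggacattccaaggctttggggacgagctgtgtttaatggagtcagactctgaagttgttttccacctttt
Stt3b: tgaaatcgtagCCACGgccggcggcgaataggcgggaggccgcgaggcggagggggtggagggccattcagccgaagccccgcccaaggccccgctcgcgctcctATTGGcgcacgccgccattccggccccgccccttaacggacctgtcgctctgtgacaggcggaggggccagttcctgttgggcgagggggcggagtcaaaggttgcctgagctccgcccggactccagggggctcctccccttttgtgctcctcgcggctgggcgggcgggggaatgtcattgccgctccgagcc
Srpr: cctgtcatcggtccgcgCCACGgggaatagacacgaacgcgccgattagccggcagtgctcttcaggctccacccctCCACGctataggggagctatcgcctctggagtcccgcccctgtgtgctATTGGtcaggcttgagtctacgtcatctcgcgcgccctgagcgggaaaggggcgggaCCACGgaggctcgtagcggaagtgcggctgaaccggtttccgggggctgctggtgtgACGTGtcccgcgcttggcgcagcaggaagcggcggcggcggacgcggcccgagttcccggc

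Promoters were given for 21 of the 29 genes (22 promoters). The complete ER stress response element (ERSE, CCAAT and CCACG with 9 bases between them) was matched in 0 of the 22. It was matched in 0.168% of the promoters of linked loci with at least 50 CPM and in 0.119% of all 32851 RefSeq promoters. ERSE-II (ATTGG and CCACG with 1 base between them) and the unfolded protein response element TGACGTGG were also matched in 0 of the 22. Their shares were 0.0962% and 1.23% for the abundant loci, and 0.0365% and 0.676% for all promoters. With shares so low, 0 of 22 does not set these genes apart. The short letters were frequent. CCAAT was found in 54.5% of these promoters, beside 36.2% of the promoters of linked loci with at least 50 CPM and 37.4% of all promoters. CCACG was found in 59.1%, beside 48.9% and 32.8%, and ACGTG in 50%, beside 27.5% and 19.6%. CCACG and the reverse complement of ACGTG can overlap. The promoters of the machinery had a median GC content of 60.2%, beside 62.3% for those of abundant loci. These matches describe the letters in the windows only.

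**Figure D2:**
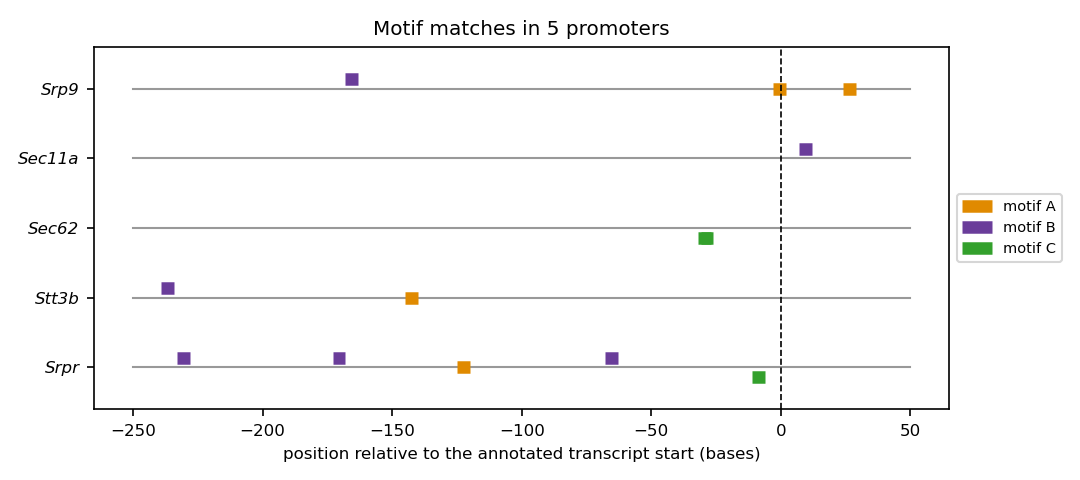
Positions of motif matches (x axis, bases from the annotated start, which is at 0) in the 5 promoters printed above (y axis). Motif A is CCAAT, motif B is CCACG and motif C is ACGTG; the Srpr promoter holds 1, 3 and 1 of them, and that of Sec62 holds motif C at 2 overlapping positions, on both strands.

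The SRP genes come first on the path. Srp9 and Srp14 encode the pair of proteins that slows translation while the ribosome is taken to the membrane. Srp9 had 128, 140.4 and 121 CPM in high fat islets, against 95.3, 91.4 and 91.3 CPM in normal diet islets. It rose with a change of 0.49 in log2 (SE 0.0822; adjusted p = 0.021 by edgeR). Srp14 had 157, 165 and 140.3 CPM in high fat islets, against 115, 114 and 119 CPM in normal diet islets, and rose by 0.41 (adjusted p = 0.028). For both genes the lowest high fat library lay above the highest normal diet library. Srp72, which binds the particle's RNA together with Srp68, had 299, 296 and 311 CPM in high fat islets, against 225, 261 and 238 CPM in normal diet islets, and rose by 0.32 (adjusted p = 0.041). Its partner Srp68 did not pass at 0.16 (adjusted p = 0.36), with overlapping groups at 101 to 126 CPM in high fat islets and 89.8 to 109 CPM in normal diet islets.

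Srp54a, one of the genes for the GTPase subunit that binds the signal sequence, was counted at 9.35, 9.60 and 1.77 CPM in high fat islets, against 7.04, 9.27 and 7.10 CPM in normal diet islets, which gave a change of -0.18 in log2 (SE 0.496; adjusted p = 0.83 by edgeR). This value is uncertain. Mouse Srp54a lies beside near-identical copies on chromosome 12, and reads that fit several copies may not have been counted. Without high fat library 3, in which it was low, its value turned to 0.29 (adjusted p = 0.18). A neighbouring locus of the same structure, linked to Srp54b and Srp54c and not separable between them, rose by 0.43 (adjusted p = 0.042), at 53.0, 55.4 and 59.2 CPM in high fat islets, against 42.5, 46.0 and 35.8 CPM in normal diet islets.

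The SRP receptor has a cytosolic GTPase subunit, encoded by Srpr, and a membrane-anchored one, encoded by Srprb. Srpr had 486, 489.6 and 470.0 CPM in high fat islets, against 338, 402 and 377 CPM in normal diet islets, and rose with a change of 0.37 in log2 (SE 0.0842; adjusted p = 0.033 by edgeR). Srprb had 209, 226 and 145 CPM in high fat islets, against 141, 144 and 132 CPM in normal diet islets. All high fat values of Srprb were above the normal diet values, but high fat library 3 was close to them, and the gene did not pass (0.48, adjusted p = 0.069). Without that library Srprb stood at 0.65 (adjusted p = 0.0013 by edgeR), in a fit that called 37.5% of the loci of at least 50 CPM higher.

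The Sec61 channel itself was represented by 2 genes, and neither passed. Sec61a1, which encodes the pore-forming subunit, had 815, 805 and 611 CPM in high fat islets, against 603, 642 and 593 CPM in normal diet islets, with a change of 0.28 in log2 (SE 0.115; adjusted p = 0.13 by edgeR). High fat library 3 overlapped the normal diet libraries there. Sec61b, a small subunit, stood at 0.28 (adjusted p = 0.12), with its lowest high fat value (102 CPM) almost touching its highest normal diet value (101 CPM). Without high fat library 3 both passed, at 0.41 and 0.38 (adjusted p = 0.0056 and 0.013 by edgeR), as did 37.5% of the loci of at least 50 CPM upward.

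Among the partners of the channel, Tram1, which encodes a membrane protein that contacts nascent chains as they enter, was the most abundant gene of the machinery in CPM. Its locus spans mm9 chromosome 1 positions 13554783 to 13579945 (minus strand). Tram1 had 1716, 1920.3 and 1868 CPM in high fat islets, against 1211, 1322 and 1350.3 CPM in normal diet islets. It rose with a change of 0.50 in log2 (SE 0.0824; adjusted p = 0.02 by edgeR), with no overlap between the diets. Sec62, which helps small precursors enter after their synthesis, had 441, 468 and 480.1 CPM in high fat islets, against 336, 357 and 308 CPM in normal diet islets, and rose by 0.47 (adjusted p = 0.022). Sec63, its membrane partner that recruits the chaperone BiP, had overlapping groups (167 to 200 CPM in high fat and 143 to 169 CPM in normal diet islets) and did not pass at 0.25 (adjusted p = 0.12). In these 3 genes high fat library 3 was not lower than both other high fat libraries.

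TRAP, the translocon-associated protein complex, helps chains with weak signal sequences, and in beta-cell lines it has been tied to preproinsulin entry. Of its 4 genes 3 rose. Ssr3, which encodes the gamma subunit, had 901, 932 and 888 CPM in high fat islets, against 616, 675 and 625 CPM in normal diet islets, with a change of 0.51 in log2 (SE 0.0748; adjusted p = 0.018 by edgeR), the smallest adjusted p among these genes. Ssr4 (mm9 chromosome X, positions 71032367 to 71036167, plus strand) had 589.8, 745 and 448 CPM in high fat islets, against 349, 339.9 and 398 CPM in normal diet islets. Its rise of 0.71 (SE 0.165, adjusted p = 0.035) was the second largest of the machinery, and its high fat libraries differed widely, with library 2 highest and library 3 lowest. Ssr1, which encodes the alpha subunit, had 770.2, 775 and 783 CPM in high fat islets, against 617, 674 and 587 CPM in normal diet islets, and rose by 0.31 (adjusted p = 0.043). Ssr2 did not pass (0.33, adjusted p = 0.069), although its high fat libraries (287 to 349 CPM) lay above its normal diet libraries (221 to 265 CPM).

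All 4 analysed genes of signal peptidase rose. Sec11c, which encodes 1 of the alternative catalytic subunits, had the largest change of the machinery. Sec11c had 390.4, 481 and 311 CPM in high fat islets, against 228, 227 and 249 CPM in normal diet islets, with a change of 0.75 in log2 (SE 0.143; adjusted p = 0.026 by edgeR). Sec11a, the other catalytic subunit, had 152, 170.0 and 140.1 CPM in high fat islets, against 109, 105 and 108 CPM in normal diet islets, and rose by 0.52 (adjusted p = 0.022). The diets did not overlap for either gene, and Sec11c was lowest in high fat library 3 and highest in library 2. Spcs1, an accessory subunit, had 271, 326 and 262 CPM in high fat islets, against 185, 206 and 209.8 CPM in normal diet islets, and rose by 0.52 (adjusted p = 0.027); 17.8% of its exonic bases are shared with another locus. Spcs3, an accessory subunit needed for activity in yeast, had 973, 1019 and 1028 CPM in high fat islets, against 718, 766 and 796 CPM in normal diet islets, and rose by 0.41 (adjusted p = 0.025).

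**Figure D3:**
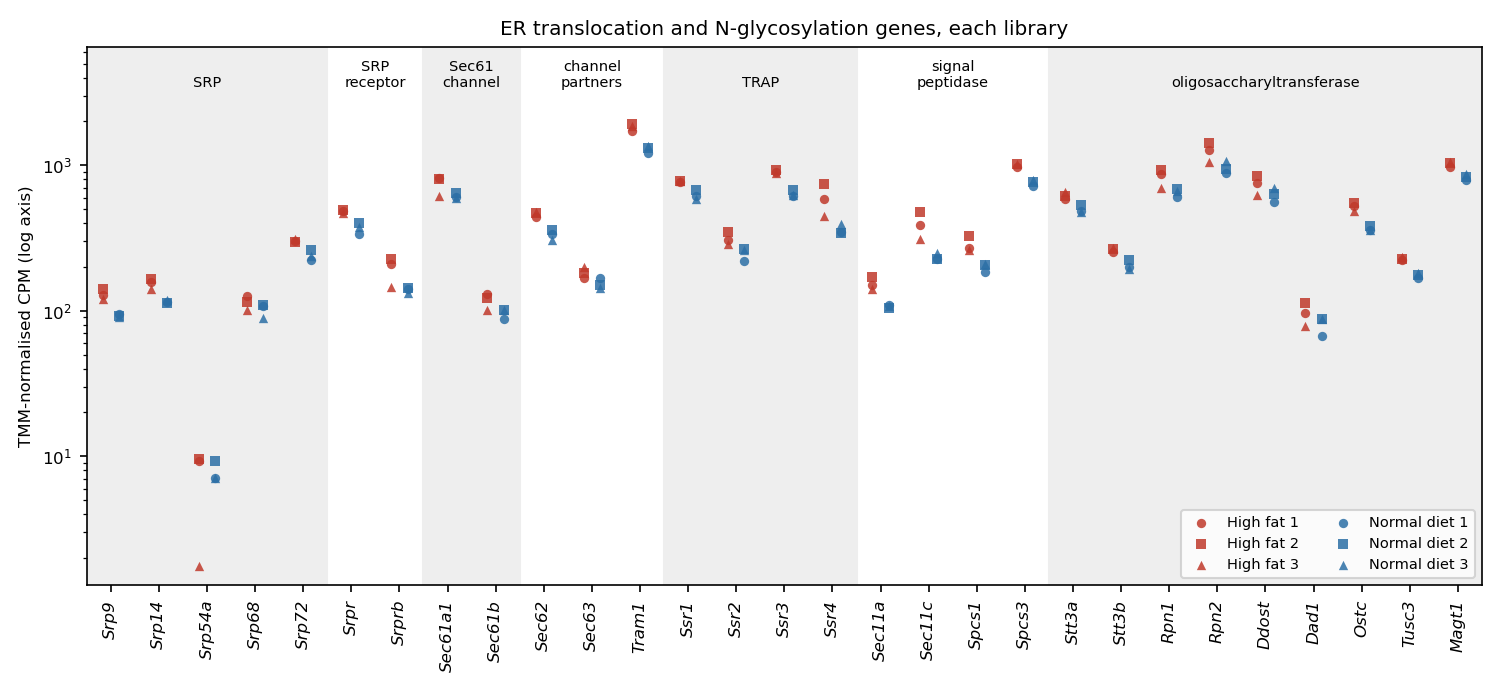
TMM-normalised CPM (y axis, log scale) of the 29 genes (x axis, by complex) in each high fat library (left, red) and normal diet library (right, blue). In 22 genes all red points lie above all blue points, and the triangle of high fat library 3 sits low in Srp54a, Srprb, Ssr4, Sec11c and Dad1.

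OST was represented by 9 genes, of which 5 rose. Its catalytic subunit comes in alternative forms. STT3A acts on chains as they pass the Sec61 channel, with OSTC in its complex, and STT3B acts on sites that were missed, with TUSC3 or MAGT1, which are oxidoreductases. Ostc had 525, 551 and 488 CPM in high fat islets, against 358, 381 and 362 CPM in normal diet islets, with a change of 0.51 in log2 (SE 0.0783; adjusted p = 0.019 by edgeR). Stt3a had 588, 617 and 652 CPM in high fat islets, against 488, 534 and 478 CPM in normal diet islets, and rose by 0.31 (adjusted p = 0.045). Stt3b had 253, 267 and 272 CPM in high fat islets, against 199, 222 and 193 CPM in normal diet islets, and rose by 0.37 (adjusted p = 0.033). Genes of both forms of the enzyme thus rose, with no overlap between the diets.

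The oxidoreductase genes rose as well. Tusc3 had 223, 228 and 233 CPM in high fat islets, against 168, 177 and 180.5 CPM in normal diet islets, and rose by 0.38 (adjusted p = 0.026). Magt1 had 967, 1039.5 and 1049.6 CPM in high fat islets, against 796, 834 and 871 CPM in normal diet islets, and rose by 0.29 (adjusted p = 0.047). The 4 subunits common to both forms gave larger errors and none passed. Rpn2, the most abundant OST gene in CPM, had 1268, 1429 and 1062 CPM in high fat islets, against 880.2, 948 and 1063 CPM in normal diet islets, with a change of 0.38 in log2 (SE 0.120; adjusted p = 0.072 by edgeR). High fat library 3 of Rpn2 lay inside the normal diet range, while the other high fat libraries were above it. Rpn1, which passes substrates to the enzyme, and Ddost and Dad1, which encode structural subunits, had log2 fold changes of 0.35, 0.24 and 0.26 (adjusted p = 0.078, 0.23 and 0.26). Without high fat library 3 all 4 passed, at 0.49, 0.47, 0.35 and 0.39 for Rpn2, Rpn1, Ddost and Dad1. That fit called 37.5% of all loci of at least 50 CPM higher.

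The alternative subunits of the machinery were also compared as log2 ratios of CPM within each library, 3 ratios in all. The Stt3b to Stt3a ratio averaged -1.23 ± 0.030 in high fat and -1.29 ± 0.021 in normal diet islets (SD, n = 3 each; exact permutation test, two-sided, p = 0.1, adjusted p = 0.15). The Tusc3 to Magt1 ratio averaged -2.16 ± 0.036 in high fat and -2.25 ± 0.018 in normal diet islets (exact permutation p = 0.1, adjusted p = 0.15). The Sec11c to Sec11a ratio averaged 1.34 ± 0.18 in high fat and 1.13 ± 0.073 in normal diet islets, with overlapping groups (exact permutation p = 0.2, adjusted p = 0.2). With 3 libraries against 3 the smallest p possible is 0.1, so no ratio could pass, and the differences of 0.059, 0.090 and 0.21 in log2 are given as sizes only.

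On a scale per length, CPM per kilobase of the longest linked transcript, the highest levels in high fat and normal diet islets were those of Ssr4 (739 and 451), Tram1 (635 and 448), Sec11c (512 and 305), Ostc (491 and 345) and Rpn2 (461 and 355). Srp54a (1.62 and 1.83), Sec63 (24.6 and 20.7) and Dad1 (27.5 and 23.0) were lowest. Some places in this order depend on the transcript chosen. With the shortest linked transcript Dad1 would stand at 138, Ssr1 at 418 in place of 83.4 and Srprb at 721 in place of 64.6 in high fat islets. With all exonic bases of the locus, Srp68 would stand at 5.84 in place of 45.1 and Tusc3 at 10.2 in place of 84.1. Both would then lie below Sec63 (24.6).

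Summed CPM by complex were higher in high fat islets in every library for all complexes but the Sec61 channel. For signal peptidase the sum was 1786, 1997 and 1741 CPM in high fat islets, against 1240.4, 1304 and 1363 CPM in normal diet islets. For the channel partners it averaged 2481 ± 136 CPM in high fat and 1782 ± 58.7 CPM in normal diet islets, and for TRAP 2591 ± 199 CPM in high fat and 1876 ± 75.6 CPM in normal diet islets (SD, n = 3 each). For OST it averaged 5575 ± 436 CPM in high fat and 4408 ± 252 CPM in normal diet islets. The Sec61 channel sums overlapped in high fat library 3 (713 CPM) and normal diet library 2 (742 CPM).

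**Figure D4:**
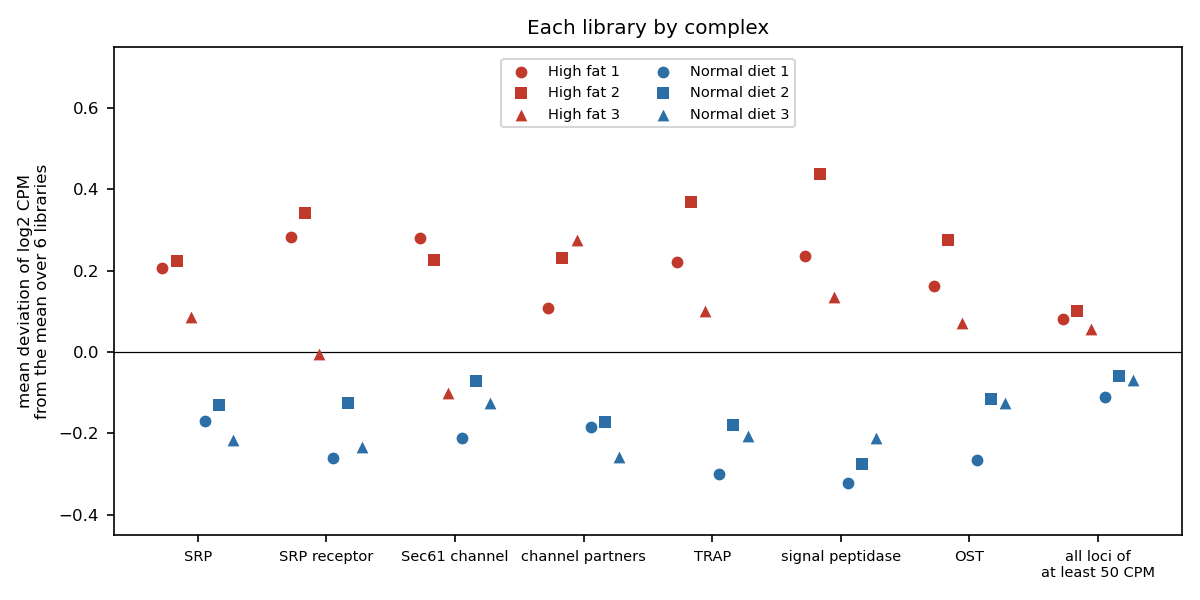
Mean deviation of log2 CPM from the mean over all 6 libraries (y axis) for the genes of each complex other than Srp54a and for all loci of at least 50 CPM (x axis), with 1 point per library. High fat library 2 is highest for TRAP (0.37) and signal peptidase (0.44), and high fat library 3 falls to -0.10 for the Sec61 channel but is highest for the channel partners (0.28).

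Within the high fat group the genes did not move as 1 block. High fat library 3 was below both other high fat libraries for 18 of the 28 genes other than Srp54a, as it was for 35.7% of the loci of at least 50 CPM. The difference in log2 CPM between high fat library 3 and the mean of the other 2 ran from -0.58 for Srprb to 0.20 for Sec63, with a median of -0.16 for these genes and 0.058 for the abundant loci. It was more negative at higher GC content. Across the 28 genes the Spearman correlation with the GC content of the longest annotated coding transcript was -0.74, and across the 3952 linked coding loci of at least 50 CPM it was -0.73. The Spearman correlation with transcript length was 0.54 and 0.39. Srp54a, left out of these values, stood at -2.41 with a low GC content of 42.2%, against the GC trend. The correlations are descriptions over genes of the same libraries.

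**Figure D5:**
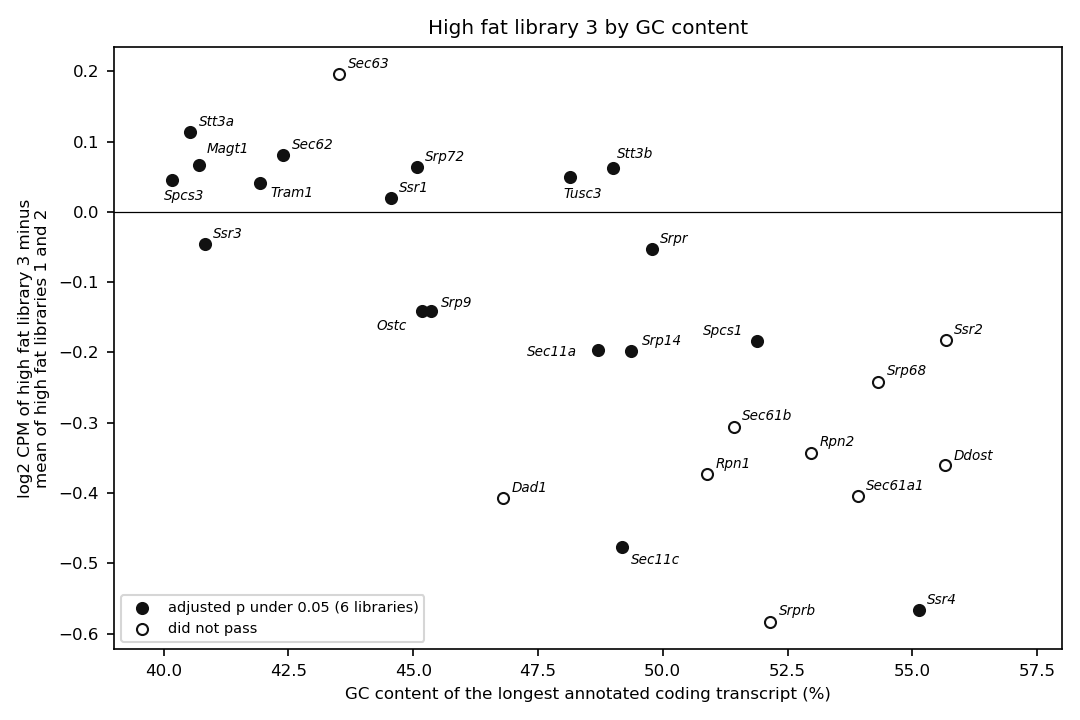
Log2 CPM of high fat library 3 minus the mean of high fat libraries 1 and 2 (y axis) against GC content in percent (x axis) for 28 genes, filled where the adjusted p was under 0.05 with all 6 libraries. Genes called higher had a median GC content of 45.3% and those that did not pass 52.6%, and the points fall toward high GC content. Srp54a, at -2.41 and a GC content of 42.2%, is not shown.

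Genes that passed and genes that did not, Srp54a left out, had median GC contents of 45.3% (18 genes) and 52.6% (10 genes). Srp54a did not pass and had a GC content of 42.2%. A fit with a GC correction for each library, chosen after these values had been seen, was run on the 13573 linked coding loci tested. It called 17 of the 29 genes higher and 0 lower, beside 7.07% of all loci in that fit and 14.5% of those with at least 50 CPM. Of these 17, 13 had passed without the correction. Sec61a1, Ssr2, Rpn2 and Ddost were gained, at 0.28, 0.41, 0.36 and 0.30, while Srp72, Ssr1, Spcs3, Stt3a and Magt1 no longer passed, at 0.17, 0.16, 0.23, 0.14 and 0.12. The largest rises in that fit were those of Ssr4, Sec11c and Spcs1, at 0.75, 0.65 and 0.47, with adjusted p-values of 0.013, 0.028 and 0.016. The median of the 29 genes was 0.28 and that of the abundant loci 0.087 in that fit, beside 0.37 and 0.18 over the same loci without the correction.

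The split of calls differed between scalings. In edgeR, TMM gave 1426 loci higher and 1165 lower, and upper-quartile factors 562 higher and 1159 lower with 11 of the 29 genes higher. In limma, the deposited scaled values gave 399 loci higher and 945 lower with 2 of the 29 genes higher, and the same values divided by library totals 292 higher and 2968 lower with 5 of the 29 higher. None of these 4 fits called any of the 29 lower. With library totals the median of all loci was -0.26 and that of the abundant loci -0.019, beside -0.027 and 0.22 in limma without that division. On that scale the 29 genes had a median of 0.17, which was 0.19 above the abundant loci, and 27 of 29 values were positive, Srp68 being at -0.046.

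Other genes of the pathway were read from lists of related functions. Of 15 further translocon, OST and channel-associated loci, 6 rose and 0 fell (median 0.28). Hspa5, which encodes the ER chaperone BiP that pulls chains through the channel, had 5404, 5499 and 4664 CPM in high fat islets, against 3649.9, 3934 and 3663 CPM in normal diet islets, and rose by 0.47 (adjusted p = 0.026). Dnajc1, an ER membrane co-chaperone, and Ccdc47, a part of the multipass translocon, rose by 0.42 and 0.38 (adjusted p = 0.026 and 0.032). Of 16 genes of the ER membrane complex and the tail-anchor pathway, which insert membrane proteins by other routes, 4 rose and 0 fell (median 0.17), with Emc2, Emc7 and Ubl4a at 0.50, 0.38 and 0.35 (adjusted p = 0.02, 0.027 and 0.041). Their median lay below the 0.19 of the abundant loci, of which 20.4% were called higher. Not all of these 16 genes were abundant, with means from 7.45 CPM for Emc9 to 629 CPM for Emc1.

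Synthesis of the sugar donor, the dolichol-linked oligosaccharide, and of its nucleotide sugars was represented by 26 genes, of which 7 rose and 0 fell (median 0.28). Alg5, which makes the dolichol-linked glucose donor, had 51.4, 52.9 and 47.2 CPM in high fat islets, against 35.9, 34.5 and 34.2 CPM in normal diet islets, and rose by 0.53 (adjusted p = 0.02). Alg11, a mannosyltransferase, and Uap1, an enzyme that makes UDP-N-acetylglucosamine, rose by 0.46 and 0.42 (adjusted p = 0.022 and 0.027). Of 18 genes for trimming of the transferred sugar, lectin chaperones and glycoprotein export, 9 rose and 0 fell (median 0.34). Erlec1, an ER lectin of glycoprotein degradation, had 100.3, 109.5 and 103 CPM in high fat islets, against 68.0, 65.8 and 63.2 CPM in normal diet islets, and rose by 0.67 (adjusted p = 0.011). Lman1 and Mcfd2, which together form a cargo receptor for glycoproteins, rose by 0.42 and 0.53 (adjusted p = 0.025 and 0.023). The counts called higher stand beside the 5.95% of all loci and the 20.4% of abundant loci given above. Neither share is a like background, since the lists mix scarce and abundant genes. In the sugar donor list the means ran from 6.71 CPM for Alg8 to 692 CPM for Gfpt1.

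Markers of some cell types differed between the diets as well. Acinar cells, the enzyme-secreting cells around the islets, are rich in the secretory machinery. The 14 acinar markers measured, of 16 listed, summed to 5164, 11045 and 8718 CPM in high fat islets, against 3522, 6799 and 5926 CPM in normal diet islets, with overlapping groups. Try5 was the 1 of 14 that rose, at 1.21 (adjusted p = 0.028). The most abundant, Pnlip, Cela1 and Cela2a, had log2 fold changes of 0.78, 0.59 and 0.32 and did not pass. Cpb1 and Amy2b were not linked to a locus. With the mean log2 CPM of these markers as a covariate, the median of the machinery was 0.31, beside 0.16 over the abundant loci. In that fit 28 of 29 values were positive, but 0 genes passed and 0 loci of any kind were called. Of the 29, 19 then had positive values with an unadjusted p under 0.05 by edgeR. Of all loci 4050 had one in either direction, which is not a like background for upward values. The upward share among abundant loci was not computed.

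Of 6 measured beta-cell markers 2 rose, Iapp and G6pc2, at 0.72 and 0.78 (edgeR adjusted p = 0.014 and 0.011), and 0 fell. Ins1 and Ins2 did not pass, at 0.32 and 0.16 (adjusted p = 0.12 and 0.61). Of their exonic bases, 61.6% and 18.4% are shared with another locus, where reads may not have been counted. Mafa and Pdx1 were not linked, and Slc2a2 and Nkx6-1 held 0 reads at loci whose exonic bases were over 90% shared. Of 4 measured alpha-cell markers 2 fell, Irx1 and Irx2, at -0.998 and -0.53, while Gcg did not pass at -0.29. The alpha-cell sum was 17357 to 21018 CPM in high fat and 22136 to 24449 CPM in normal diet islets. Of 4 measured Schwann cell markers 3 fell, Ngfr, Gfap and Sox10, at -1.30, -1.13 and -1.43. These 3 were scarce, with 979, 584 and 411 counts over all 6 libraries together. The macrophage sum was 107 to 159 CPM in high fat and 166 to 178 CPM in normal diet islets, with 1 of 4 lower (Csf1r, -0.50) and C1qa and Lyz2 at -0.31 and -0.26, which did not pass. Of 6 stromal markers 2 rose, Rgs5 and Acta2, at 0.69 and 0.83, and 4 had negative values, the lowest at -1.37. Those 4 did not pass, with Col3a1 and Col1a2 at -0.44 and -0.65. The stromal sums were 427 to 550.3 CPM in high fat and 336 to 415 CPM in normal diet islets. Rgs5 weighed most in them, with 217519 counts over all 6 libraries, beside 51377 for Col3a1. Delta, duct and endothelial lists had 0 of 2, 0 of 4 and 0 of 5 markers past the test, with sums of 7.18 to 9.28, 41.2 to 60.9 and 320 to 398 CPM in high fat, and 11.2 to 13.0, 36.6 to 43.0 and 319 to 372 CPM in normal diet islets. Hhex and Rbp4 (delta) stood at -0.42 and -0.90, Spp1, Krt19 and Sox9 (duct) at 0.35, -0.70 and -0.01, and Kdr, Plvap and Emcn (endothelial) at 0.05, -0.02 and 0.31. The part of such shifts between cell types in the rise of the machinery was not tested.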

How the data were processed

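RNA of 6 islet libraries was sequenced. Libraries were stranded, depleted of ribosomal RNA and not poly(A)-selected, per the labels' protocols. The submitters' processing notes name HTSeq 0.5.4p3, edgeR, TopHat2 2.0.8 and Cufflinks 2.1.1 with build mm9, and their roles and settings are not given in the sources used here. The deposited raw counts cover 39470 loci. The deposited scaled values, a signal, are those counts times 1 constant per library (0.906 to 1.10): divided by it, 100% were whole reads within 0.001. They keep differences in depth and served only as an alternative. The deposited transcripts (98161) give mm9 exon coordinates. All 548 loci wholly covered only by a locus on the other strand held 0 counts, so counting did not separate strands.

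Loci were linked to GENCODE M21 genes (GRCm38) by exact intron and inner exon lengths, by introns with a 40-base tolerance at the ends for 2-exon transcripts, or, with at least 4 introns matching, with 2 bases of tolerance per exon, which only Spcs3 of the analysed genes needed. Of 39470 loci 19738 were linked, holding 92.3% of counts. No coordinates were converted. The promoter sequence of another gene and the values of another marker are not reported here.

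In R 4.3.3, edgeR 4.0.16 was run with TMM factors on the 23983 loci that filterByExpr retained (quasi-likelihood test, diet alone, two-sided, Benjamini-Hochberg over all loci tested, threshold 0.05); each SE is the log2 fold change over the square root of F. The procedure was tested on simulated data. DESeq2 1.42.0 and limma 3.58.1 (pseudocount 1) gave alternatives. Replicate numbers were not treated as pairs in the main fit. Printed per library are genes past the threshold, alternative subunits and the 3 most abundant genes; Srp54a, Srprb and Sec61a1, chosen after their values were seen; and of each further list up to 3 genes past the threshold by adjusted p, with the 3 most abundant markers per cell type; other markers past the test were named after their values were seen. The members and lists were chosen with earlier results of these data known.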

Additional observations from a re-analysis of the deposited data

How the results depend on the processing

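Values were recomputed under other settings, of which 3 were added after seeing the data (library totals, GC correction, and linked coding loci alone). Against 1426 loci higher and 1165 lower, and 18 of the 29 genes higher, upper-quartile factors gave 562 higher loci and 11 genes, DESeq2 2476 higher loci and 22 genes, limma on the deposited scaled values 399 higher loci and 2 genes, and limma after division by library totals 292 and 2968 loci, 5 genes and a median of 0.17 for the genes. GC correction gave 611 lower loci and linked coding loci alone 363 lower. The acinar covariate gave 0 loci in either direction and 0 genes. A replicate block gave 54 higher loci, 20 lower and 0 genes, with a lowest adjusted p of 0.053 among the genes (edgeR). Same-numbered libraries correlated at -0.13, 0.17 and -0.15, and differently numbered ones from -0.35 to 0.285. These values, centred within each diet, show no pairs but cannot exclude them. Without 1 library at a time, loci ran from 0 to 3075 higher and 0 to 1960 lower, and genes from 0 to 26 higher. RLE factors, no filter and a 10% limit on shared bases kept all of these counts within 1.5 times. No setting called any of the genes lower. Single values changed sign for Srp54a (-0.48 to 0.29 over the fits without 1 library, positive without high fat library 3) and Srp68 (-0.046 with library totals). Leaving out libraries moved the 3 subunit ratios without a change of sign. The cause of these shifts was not tested.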

Other observations

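Some further genes of the pathway were very low in high fat library 3 alone; they were picked after their values were seen. Dpm3, a subunit of dolichol-phosphate mannose synthase, had 48.82, 54.92 and 7.27 CPM in high fat islets, against 28.79, 36.04 and 35.97 CPM in normal diet islets. Ost4, which encodes a very small OST subunit, had 24.27, 29.28 and 8.62 CPM in high fat islets, against 19.76, 19.21 and 18.46 CPM in normal diet islets, and Emc10, of the ER membrane complex, 60.52, 57.24 and 22.66 CPM in high fat islets, against 40.01, 56.16 and 52.37 CPM in normal diet islets. None of these 3 passed the test (adjusted p = 0.89, 0.85 and 0.88 by edgeR).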
